A study of Mus musculus with 4 samples.

Results

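Loci where laboratory mouse strains are known to differ in copy number, 3 in all, were examined by array comparative genomic hybridisation, in which differently dyed DNA of a sample and of a reference binds to one set of probes. The members were 6 genes: Nnt, the pair Ide and Btaf1, and the trio Glo1, Glp1r and Btbd9. They were found by the gene name that the array design gives each probe. Of the 6, 5 had probes, 17 in all among the 52385 autosomal probes measured on every array, and they are 5 of 20445 autosomal genes tested. Ide had 0 probes and has no value of its own. Probes within 500 kb of the members were taken as flanks, which gave 87 probes in the 3 windows.

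Liver cells of mice labelled TAK1LPC-KO_RIP3-_- supplied 4 samples, and a pool of 4 normal livers was the reference on each array. Per the study's title, TAK1 was missing from liver parenchymal cells and RIP3 was knocked out as well. Every sample carried both changes, and the labels give no strain, sex or age for the samples or the pool. DNA came from formalin-fixed, paraffin-embedded sections, each sample was labelled with Cy5 and the pool with Cy3, and no dyes were swapped. Whether each sample is from its own animal is not labelled, so every p-value measures sample-to-sample spread that may be technical.

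Nnt encodes nicotinamide nucleotide transhydrogenase, which uses the proton gradient of the mitochondrial inner membrane to make NADPH. C57BL/6J mice carry a deletion of several internal exons of this gene, whereas C57BL/6N mice have it whole. Glo1 encodes glyoxalase 1, which detoxifies methylglyoxal, and some inbred strains carry a tandem duplication that holds Glo1 together with parts of its neighbourhood, while C57BL/6J lacks it. Glp1r encodes the receptor of the incretin GLP-1, and Btbd9 a BTB-domain protein. Ide encodes the insulin-degrading enzyme, and a segment with extra copies of Ide is known from some C57BL/6J animals. Btaf1 encodes an ATPase that removes TATA-binding protein from DNA.

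A ratio near 0 says only that samples and pool did not differ at a probe, since a variant carried by both cancels out. Fully measured, 3 copies in the samples against 2 in the pool give a log2 ratio of 0.58, 4 against 2 give 1, and 1 against 2 gives -1. On these arrays the X chromosome, with 2172 probes, lay at -0.86 ± 0.02 (SD, n = 4). Single probes scattered widely: the SD of the mean log2 ratio over all autosomal probes was 0.40, against a median SD over arrays of 0.20. The scanner software put 84.3% to 89.9% of sample signals and 94.4% to 97.7% of pool signals well above background. A spread between neighbouring log ratios of 0.38 to 0.42 put all 4 arrays outside the range that the scanner software accepts. Slide 1 held replicates 1 and 2, and slide 2 held replicates 3 and 4, so slide effects and sample differences cannot be told apart.

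The probes that carry the lowest and highest ratios of each gene are printed here with the build mm9, 5′ to 3′ as in the scanner files, because each value below is the binding of sample and pool DNA to one such stretch. Capitals mark G and C, whose share was 36.7% in the median member probe and in the median autosomal probe alike. Numbers count the probes of a gene in order of position.
Nnt probe 1: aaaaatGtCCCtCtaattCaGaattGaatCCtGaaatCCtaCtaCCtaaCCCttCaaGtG
Nnt probe 4: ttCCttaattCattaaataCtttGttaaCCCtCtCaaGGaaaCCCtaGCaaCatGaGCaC
Nnt probe 6: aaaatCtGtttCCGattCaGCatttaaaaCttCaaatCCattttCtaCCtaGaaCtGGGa
Btaf1 probe 2: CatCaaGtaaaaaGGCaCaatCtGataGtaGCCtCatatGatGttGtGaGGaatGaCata
Btaf1 probe 3: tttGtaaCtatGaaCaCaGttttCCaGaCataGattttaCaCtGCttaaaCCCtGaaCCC
Btbd9 probe 1: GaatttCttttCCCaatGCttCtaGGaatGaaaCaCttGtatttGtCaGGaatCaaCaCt
Btbd9 probe 2: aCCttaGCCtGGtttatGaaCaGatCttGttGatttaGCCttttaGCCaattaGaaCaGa
Glo1 probe 1: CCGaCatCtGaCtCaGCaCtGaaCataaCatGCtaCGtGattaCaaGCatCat
Glo1 probe 2: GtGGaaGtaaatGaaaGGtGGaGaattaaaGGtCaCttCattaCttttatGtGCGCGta
Glp1r probe 1: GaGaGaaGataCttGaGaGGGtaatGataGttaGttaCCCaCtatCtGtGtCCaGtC
Glp1r probe 2: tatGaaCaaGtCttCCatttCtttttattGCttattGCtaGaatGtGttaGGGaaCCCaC

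None of the 5 measured genes differed from the pool past the threshold, an adjusted p under 0.05 (limma across all autosomal genes, Benjamini-Hochberg) with a mean log2 ratio at least 0.25 from 0. Over all autosomal genes 35.4% passed it, 16.1% higher and 19.3% lower. At an unadjusted p under 0.05 the members also had 0 genes, and all autosomal genes 10155 of 20445. Their gene means ran from -0.15 to 0.02 with a median of -0.11, against a median of -0.01 over all autosomal genes. Of the 20 values that 5 genes gave on 4 arrays, 14 were below 0, and the extremes were -0.33 and 0.18. The intervals of the 5 means (95%, limma) all lay between -0.38 and 0.18, so none reached the 0.58 of 3 copies against 2 or the -1 of 1 copy against 2. Those intervals cover the spread between arrays and not the scatter between probes. In Nnt the exons of the known strain deletion were not measured, so the Nnt interval says nothing about that deletion.

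**Figure D1:**
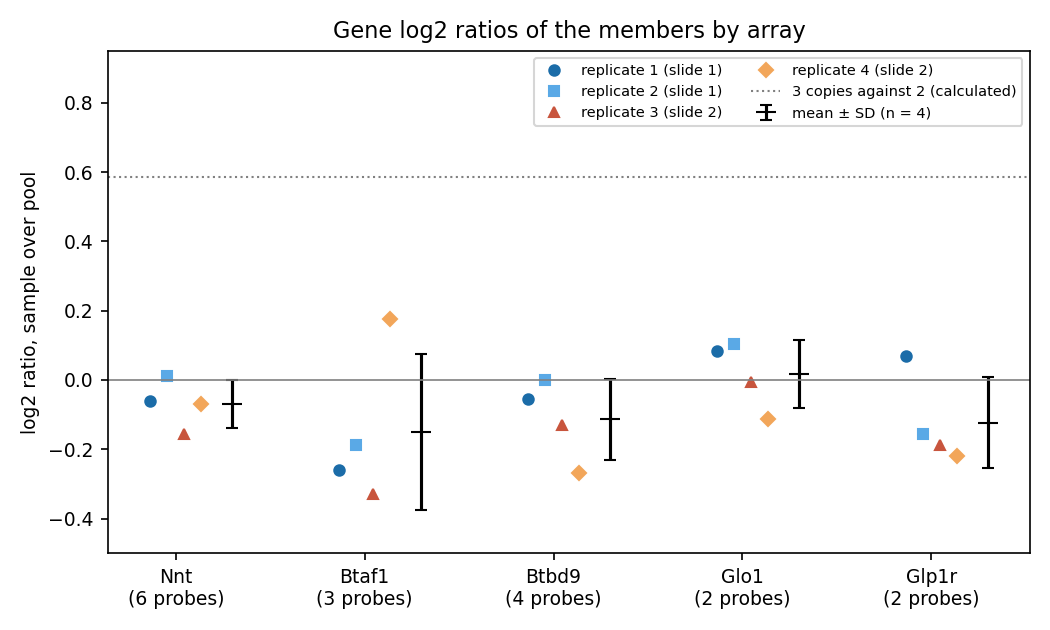
Log2 ratio of samples over pool (vertical axis) for the 5 members with probes, one point per array, with the mean and SD of 4 arrays beside them; the dotted line is the calculated ratio of 3 copies to 2. Every point lies between -0.33 and 0.18, below the dotted line at 0.58.

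Glo1 had arrays on both sides of 0. Its gene values on replicates 1, 2, 3 and 4 were 0.08, 0.10, -0.0058 and -0.11, a mean of 0.02 ± 0.10 (SD, n = 4; limma, adjusted p = 0.857) with an interval of -0.14 to 0.18. Its mean was -0.12 with normexp, a model-based background correction of the raw signals, and 0.13 with a correction for G+C content. Slide 1 was above 0 and slide 2 below it, with means of 0.09 and -0.06. The 2 probes of Glo1 are among the brightest of the members, and the first, at chr17:30730051-30730103, had processed intensities of 2065, 2473, 2580 and 2441 in the samples against 2452, 2477, 2576 and 2674 in the pool. Sample and pool were almost equal on replicates 2 and 3, and the sample was dimmer on replicates 1 and 4. The probe averaged -0.08 ± 0.12 (limma across all autosomal probes, adjusted p = 0.495). The second, at chr17:30739775-30739833, had 2344, 1952, 1846 and 2036 in the samples against 1816, 1793, 1869 and 2139 in the pool. Here the sample was brighter on slide 1 and dimmer on slide 2, with a mean log2 ratio of 0.11 ± 0.21 (adjusted p = 0.411).

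Glp1r, downstream on the same chromosome, was a little lower. Its gene values were 0.07, -0.16, -0.19 and -0.22 on replicates 1 to 4, a mean of -0.12 ± 0.13 (SD, n = 4; limma, adjusted p = 0.221). Replicate 1 alone was above 0. The probe at chr17:31047426-31047482 gave 0.13, -0.34, -0.0093 and -0.21, and the one at chr17:31060146-31060205 gave 0.005, 0.02, -0.37 and -0.23. Their means, -0.11 and -0.14, were close to each other, although the arrays fell in a different order at each. The second probe was dim, with 238 to 387 in the samples against 276 to 392 in the pool, and was well above background in the sample channel on 3 of 4 arrays.

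Btbd9, the gene at the lower-coordinate end of the trio, had values of -0.06, 0.00037, -0.13 and -0.27 on replicates 1 to 4. The mean was -0.11 ± 0.12 (SD, n = 4; limma, adjusted p = 0.238). Its 4 probes had means of -0.01, -0.22, -0.14 and -0.09 in order of position. None of them passed the threshold, which 36.9% of all autosomal probes did, 18.2% higher and 18.8% lower. With normexp the last of them, at chr17:30622143-30622202, passed it at -0.27 (limma, adjusted p = 0.00605). The probe at chr17:30514278-30514337 was the steadiest of all 17, at -0.07, -0.11, -0.20 and -0.18. The probe at chr17:30354440-30354499 spread most within Btbd9, at 0.15, 0.27, -0.14 and -0.32, above 0 on slide 1 and below 0 on slide 2. For Btbd9, Glo1 and Glp1r alike the mean of slide 2 (-0.20, -0.06 and -0.20) was below that of slide 1 (-0.03, 0.09 and -0.04), a difference that was not tested.

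The whole stretch from the first Btbd9 probe to the last Glp1r probe, 706 kb of chromosome 17 from 30354440 to 31060205, showed no step against its flanks. Its 16 probes averaged -0.09, -0.17, -0.10 and -0.33 on replicates 1 to 4, against -0.08, -0.09, -0.12 and -0.11 for 27 flank probes. The difference was -0.0035, -0.08, 0.02 and -0.22, a mean of -0.07 ± 0.11 (SD, n = 4). The arrays did not share a sign, with 3 below 0 and 1 above (exact two-sided sign-flip permutation test, p = 0.375; adjusted over 3 loci, 0.375; 4 arrays cannot reach p under 0.05 in this test). Between Glo1 and Glp1r lie 6 probes of Dnahc8, an axonemal dynein heavy chain. Apart from 1 dim probe named below, they averaged between -0.26 and 0.09, and none passed the threshold. The transcript AK002941, on 1 probe between Btbd9 and Glo1, was lower, at -0.46, -0.36, -0.58 and -0.60 (mean -0.50 ± 0.11; limma across probes, adjusted p = 0.00578). The unnamed probe at chr17:31024740-31024799 and the Dnahc8 probe at chr17:30798985-30799044 had sample signals too near background on all 4 arrays for their ratios to give a size. Their values are nonetheless part of the averages of the 16 probes above. With only probes well above background in both channels on all arrays, the difference was -0.06 ± 0.06 (SD, n = 4). With the 8 member-named probes in place of all 16, the difference from the flanks was 0.02. Where the known duplication begins and ends was not looked up, so the span may mix sequence inside and outside it.

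In the flanks of the trio the highest probe was one of Zfand3, at 0.34 ± 0.22, and the lowest was the unnamed one at chr17:29930320-29930379, at -0.51 ± 0.38. Of the 27 flank probes 2 were past the threshold above the pool and 5 below it, against 18.2% and 18.8% of all autosomal probes. Of the 16 inside probes 0 were above and 2 below, namely that of AK002941 and the dim unnamed one. The member probes of the trio had 0 of 8 past it.

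Nnt was close to the pool as a gene and below its surroundings. The gene values were -0.06, 0.01, -0.16 and -0.07 on replicates 1 to 4, a mean of -0.07 ± 0.07 (SD, n = 4; limma, adjusted p = 0.411). Chromosome 13 as a whole lay at 0.15, 0.14, 0.21 and 0.21 on the same arrays, a median of 0.18 ± 0.04. With each array centred on the median of the gene's own chromosome, Nnt lay at -0.25 (95% interval -0.41 to -0.09; limma, adjusted p = 0.0305, within a range of 0.0305 to 0.734 over 14 alternatives). That size falls just short of the limit of 0.25, so the gene was not called there either. The array's probes are placed on mm9, a sequence of C57BL/6J, so the 6 Nnt probes lie in parts that this strain retains, and the exons missing from it were not measured. They span chr13:120137221-120193804, and their positions relative to exons and introns of mm9 were not used here.

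The 6 Nnt probes had means of both signs. In order of position these were -0.34, 0.09, -0.05, 0.39, -0.14 and -0.38, an SD between probes of 0.29, and the SDs of single probes over the 4 arrays ran from 0.08 to 0.44. Probe 1, at chr13:120137221-120137280, had processed intensities of 550, 636, 569 and 593 in the samples against 713, 857, 749 and 665 in the pool. The sample was dimmer on all 4 arrays, with log2 ratios of -0.36, -0.40, -0.40 and -0.19 (mean -0.34 ± 0.10; limma across probes, adjusted p = 0.0201). This probe was printed at 2 spots, which gave -0.10 and -0.63 on replicate 1, -0.66 and -0.15 on replicate 2, -0.32 and -0.48 on replicate 3, and -0.33 and -0.05 on replicate 4. All of these spots were below 0, and on replicates 1, 2 and 4 the spots of an array lay farther apart than the 4 array values.

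Probe 4 of Nnt, at chr13:120182462-120182521, went the other way. Its intensities were 1371, 1273, 1179 and 1299 in the samples against 1057, 1226, 887 and 812 in the pool, and its log2 ratios 0.40, 0.10, 0.41 and 0.67 (mean 0.39 ± 0.23; limma across probes, adjusted p = 0.0285). Probe 6, at chr13:120193745-120193804, gave -0.22, 0.17, -0.82 and -0.64, low on slide 2 and of both signs on slide 1 (mean -0.38 ± 0.44; adjusted p = 0.112). It was the dimmest of the Nnt probes, with 314, 356, 159 and 164 in the samples against 370, 325, 281 and 254 in the pool, and was well above background in the sample channel on 1 of 4 arrays. Probe 3, at chr13:120171758-120171817, was the brightest, with 2359, 2931, 2808 and 2729 in the samples against 2630, 2679, 3058 and 2922 in the pool, a mean log2 ratio of -0.05 ± 0.15. Among 17 member probes 1 was past the threshold above the pool, Nnt probe 4, and 2 below it, Nnt probe 1 and Btaf1 probe 2. Over all autosomal probes 36.9% passed. None of the 3 kept its call in every alternative. Probe 1 lost it in 4 of 13, with adjusted p up to 0.0722. Probe 4 lost it in 6 of 13, with adjusted p up to 0.144. Other Nnt probes gained a call, namely probe 3 with normexp (-0.26), probes 5 and 6 with chromosome centring (-0.32 and -0.55) and probe 6 without replicate 2 (-0.56).

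**Figure D2:**
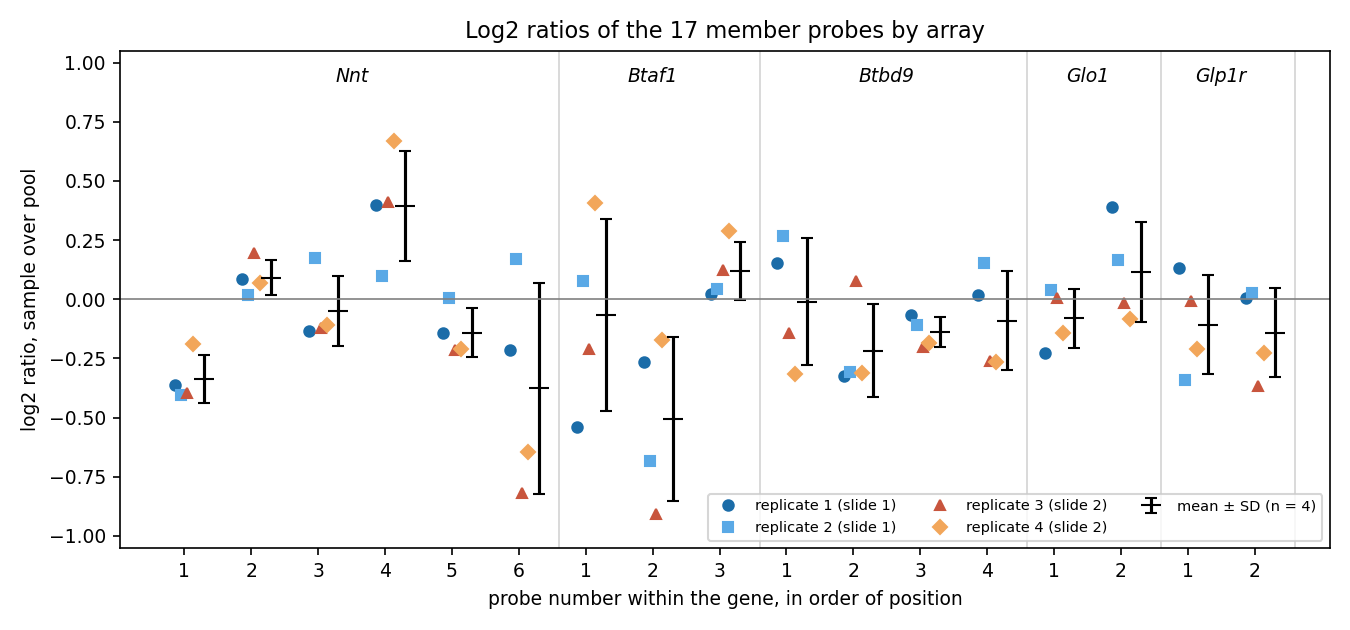
Log2 ratio of samples over pool (vertical axis) for the 17 member probes, numbered by position within each gene, one point per array with the mean and SD of 4 arrays beside them. Nnt probes 1 and 6 average -0.34 and -0.38 while probe 4 averages 0.39. The means of the Btbd9, Glo1 and Glp1r probes lie between -0.22 and 0.11.

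Set against its flanks, Nnt was lower on every array. The 6 Nnt probes averaged -0.06, 0.01, -0.16 and -0.07 on replicates 1 to 4, against 0.36, 0.44, 0.62 and 0.61 for 11 flank probes. The difference was -0.42, -0.43, -0.78 and -0.68, a mean of -0.58 ± 0.18 (SD, n = 4; exact two-sided sign-flip permutation test, p = 0.13, the smallest that 4 arrays allow; adjusted over 3 loci, 0.375). It was -0.42 on slide 1 and -0.73 on slide 2. The flanks carried the height, with 6 of 11 probes past the threshold above the pool and 0 below it. Over all autosomal probes 18.2% passed it above the pool and 18.8% below. Against the 4 probes on the lower-coordinate side alone the difference was -0.31, and with flanks of 1000 kb it was -0.39. Of those 4 probes 1 lay at 1.01 and the others between -0.08 and 0.10, so the lower-side difference rests on a single probe. The highest flank probe, in Paip1, lay at 1.55, and without it the difference was -0.47.

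Of the high flank probes 1 lay on the lower-coordinate side of Nnt and the others on the higher-coordinate side. Paip1, which encodes a partner of poly(A)-binding protein, had gene values of 0.99, 0.67, 1.21 and 1.04, all above every Nnt value (mean 0.98 ± 0.23, SD, n = 4; limma, adjusted p = 0.00148). Its 2 probes lay far apart, at 0.40 ± 0.30 and 1.55 ± 0.36. The lower of them was well above background in the sample channel on 3 of 4 arrays. The unnamed probes at chr13:120204240-120204299 and chr13:120215242-120215301, between Nnt and Paip1, averaged 0.72 ± 0.12 and 0.78 ± 0.18. The transcript AK019581, on 1 probe 4.38 kb beyond the last Nnt probe, was at 0.21 ± 0.12 and did not pass the threshold (limma across probes, adjusted p = 0.0971). 4833420G17Rik, the last gene probed on the chromosome, spread from -0.07 and 0.21 on slide 1 to 0.92 and 0.82 on slide 2. The last probe of chromosome 13 ends at 120274738, so the higher-coordinate flank is only 80.9 kb long. On the other side the unnamed probe at chr13:120052805-120052863 lay at 1.01 ± 0.17, and the remaining 3 probes between -0.08 and 0.10.

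**Figure D3:**
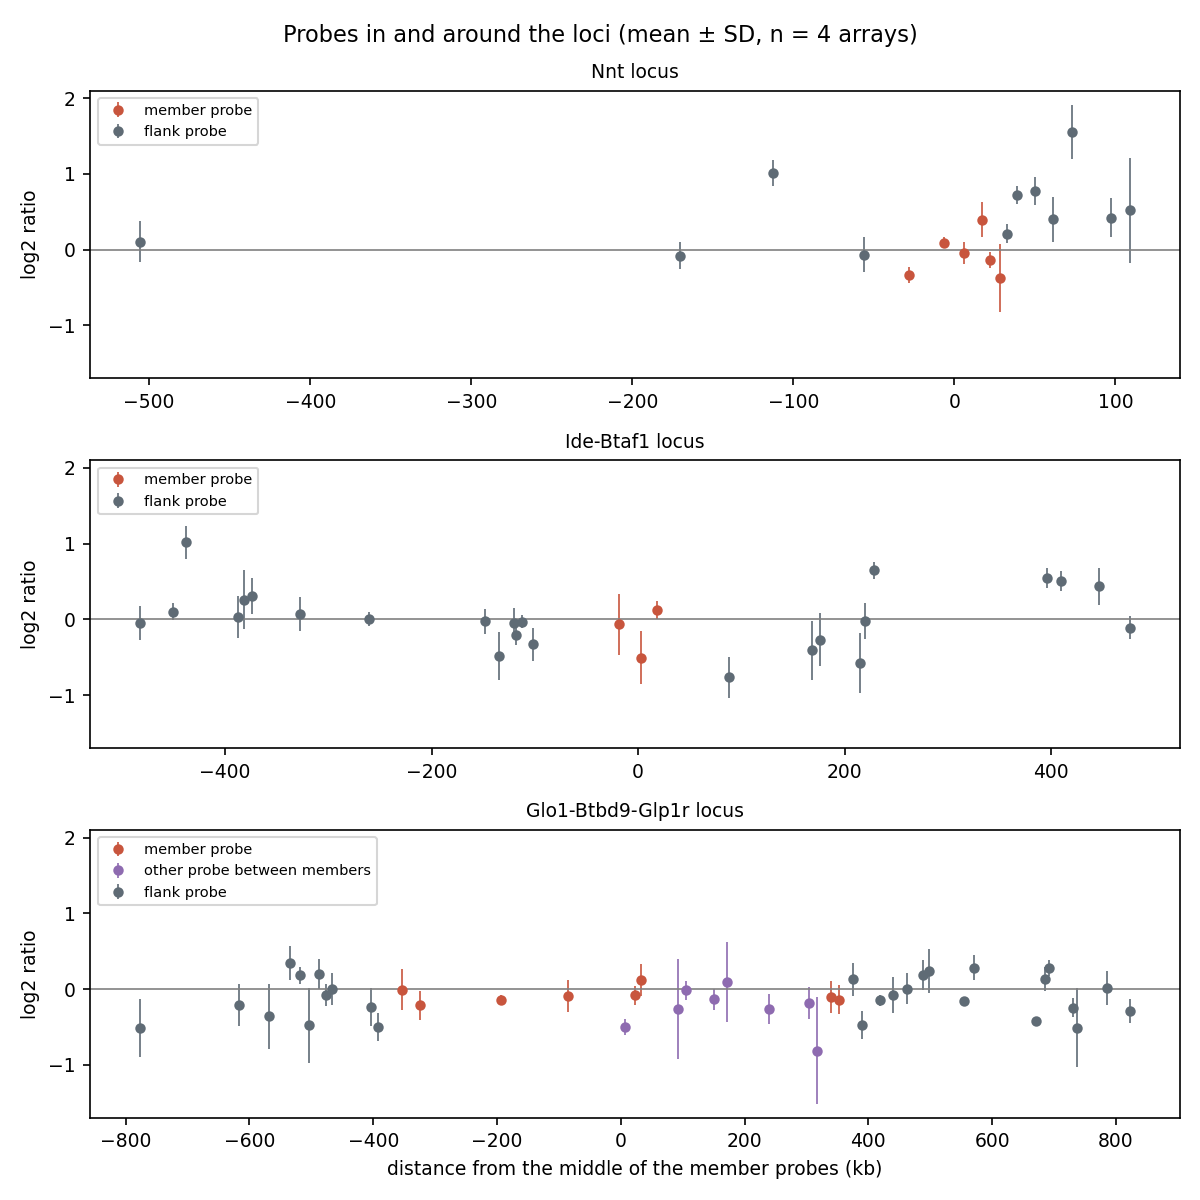
Mean log2 ratio with SD over 4 arrays (vertical axis) of each probe against its distance in kb from the middle of the member probes, for the 3 loci. Around Nnt the higher-coordinate probes rise to 1.55 above member probes between -0.38 and 0.39, and around Btaf1 and the Glo1 trio the member probes lie among their flanks.

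Btaf1 varied between arrays, with an SD of 0.23 in its gene value. Its values were -0.26, -0.19, -0.33 and 0.18 on replicates 1 to 4, so replicate 4 stood above 0 and the others below it. The mean was -0.15 ± 0.23 (SD, n = 4; limma, adjusted p = 0.25; 95% interval -0.38 to 0.08). Without replicate 4 the mean was -0.26 and without replicate 3 it was -0.09. The probe at chr19:37050531-37050590 gave -0.54, 0.08, -0.21 and 0.41, with no sign shared within either slide. Probe 2, at chr19:37071027-37071086, was low on every array, at -0.27, -0.68, -0.91 and -0.17 (mean -0.51 ± 0.35; limma across probes, adjusted p = 0.0271). Its intensities were 326, 293, 208 and 373 in the samples against 397, 486, 390 and 417 in the pool, and it was well above background in the sample channel on 1 of 4 arrays. It lost its call in 4 of 12 alternatives, and with normexp it lay at -0.12 (adjusted p = 0.208). Probe 3, at chr19:37086634-37086693, was above 0 on all 4 arrays, at 0.02, 0.04, 0.12 and 0.29 (mean 0.12 ± 0.12; adjusted p = 0.307). With probes well above background in both channels on all arrays only, Btaf1 lay at 0.0088.

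Over the 36.2 kb of its 3 probes Btaf1 averaged -0.26, -0.19, -0.33 and 0.18, against 0.07, -0.03, 0.03 and 0.02 for 24 flank probes. The difference was -0.33, -0.16, -0.36 and 0.15, a mean of -0.18 ± 0.24 (SD, n = 4; exact two-sided sign-flip permutation test, p = 0.25; adjusted over 3 loci, 0.375). With flanks of 250 kb, which leave out Hectd2, Kif11 and Hhex among others, the difference changed sign, to 0.04. It was -0.027 with normexp and -0.039 with probes well above background only. The higher-coordinate flank spans the place of Ide, between the March5 and Kif11 probes. These probes count as flank, so a change in copy number shared by Ide and Btaf1 was not tested by this difference. Of the 24 flank probes 5 were past the threshold above the pool and 4 below it, against 18.2% and 18.8% of all autosomal probes. One of those below, in March5 at chr19:37283623-37283682, had sample signals near background on all 4 arrays, so its ratio is a bound. The highest was one of Hectd2, a ubiquitin ligase gene, at 1.02 ± 0.21, and the lowest one of Cpeb3, which encodes an RNA-binding protein of local translation, at -0.77 ± 0.28.

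**Figure D4:**
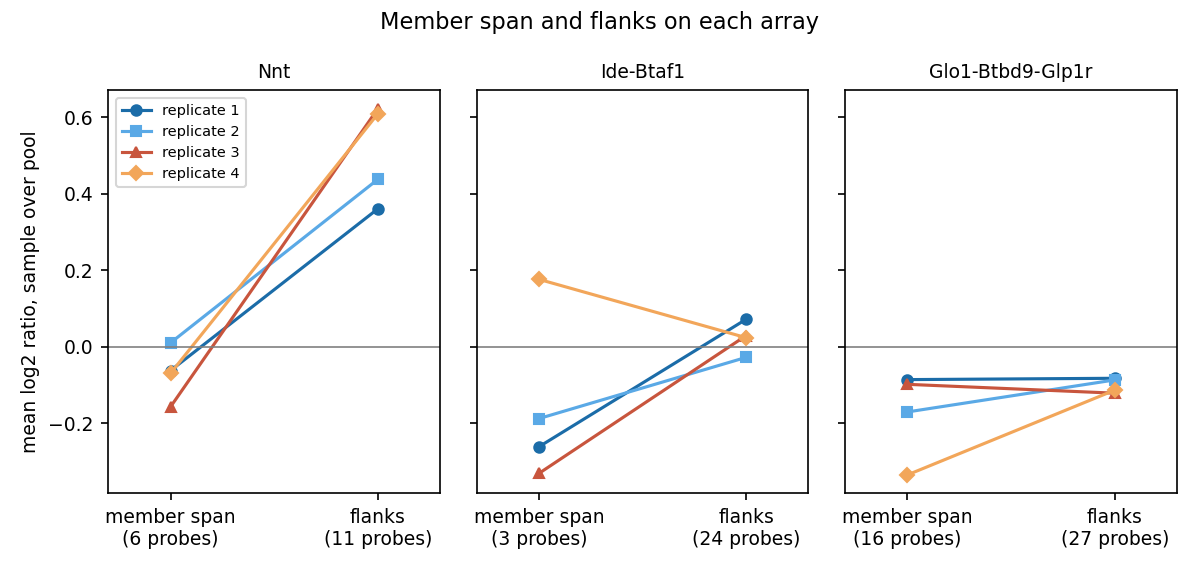
Mean log2 ratio of samples over pool (vertical axis) of the probes in each member span, left, and in its flanks, right, with a line per array. All 4 lines run upward at Nnt, where the flanks lie between 0.36 and 0.62, and the lines are of mixed slope at the other loci.

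For Ide the nearest measurements are those on either side of an unprobed gap. In the RefSeq table of GRCm38, used here for the order of genes only, Ide lies between March5 (listed as Marchf5) and Kif11. On the array the last March5 probe and the first Kif11 probe are 167 kb apart, the widest gap in that window. The March5 probe, at chr19:37297316-37297375, gave 0.74, 0.49, 0.71 and 0.65 (mean 0.65 ± 0.11; limma across probes, adjusted p = 0.00281). The 2 probes of Kif11, a mitotic kinesin, averaged 0.54 ± 0.13 and 0.51 ± 0.14 (adjusted p = 0.00516 and 0.00646). Hhex, a homeobox gene of liver development, followed on 1 probe with 0.16, 0.29, 0.69 and 0.59 (mean 0.43 ± 0.25, adjusted p = 0.0232). These 4 neighbouring probes were above the pool on all 4 arrays, and they were singled out after their values were seen. Over all autosomal probes 18.2% were past the threshold above the pool. March5 as a gene averaged 0.02 ± 0.23 on 3 probes, of which the one in this run is the highest. The run ended on both sides: the March5 probe before it averaged -0.02 ± 0.24, and AK018976 after it -0.11 ± 0.15. No value was measured inside the gap, and whether Ide shared the ratio of its neighbours was not tested.

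The order of the gene means depended on the background correction. With the processed signals, Glo1 at 0.02 was followed by Nnt at -0.07, Btbd9 at -0.11, Glp1r at -0.12 and Btaf1 at -0.15. With normexp it was nearly the reverse, with Btaf1 at -0.012, Glp1r at -0.035, Nnt at -0.062, Btbd9 at -0.095 and Glo1 at -0.12. With the processed signals no neighbours in that order differed beyond their spread. Glo1 exceeded Nnt by 0.09 ± 0.09, with 3 of 4 arrays higher (exact sign-flip permutation, p = 0.25), and the other three gaps were 0.01 to 0.04 with p of 0.75 to 0.875. On the scale of all autosomal genes the members sat between the 32.7th and the 54.0th percentile.

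Genes elsewhere in the genome with at least 3 probes gave array values close to those of the loci. Dcbld2 on chromosome 16 and Ccdc53 on chromosome 10 were nearest to Nnt over the 4 arrays, with root mean square differences of 0.019 and 0.022 in log2 ratio. Prune2 on chromosome 19 and Ttll11 on chromosome 2 were nearest to the mean of the Glo1 trio, each at 0.019. Tmem30c on chromosome 16 and Hspa14 on chromosome 2 were nearest to Btaf1, each at 0.063. These likenesses are among 4680 or more candidate genes and 4 arrays, and describe values only.

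Other loci known to vary between laboratory strains had calls in both directions, as autosomal genes at large did. Of 30 genes listed 17 had probes, with a list median of 0.08. Past the threshold were 3 above the pool and 2 below it, against 16.1% and 19.3% of all autosomal genes. Itln1, an intestinal lectin, lay at 0.81 ± 0.23 (limma, adjusted p = 0.00228) on 2 probes. Raet1a, a ligand of the receptor NKG2D, lay at -0.58 ± 0.05 (adjusted p = 0.00167) on 1 probe. Cd244, a receptor of natural killer cells, lay at 0.56 ± 0.15 (adjusted p = 0.00322) on 5 probes. Alad, an enzyme of haem synthesis whose gene is duplicated in some strains, lay at -0.07 ± 0.19. It was named after its value was seen and did not pass the threshold. Of 12 genes that work with the members, 10 had probes, with 1 above and 3 below, against the same 16.1% and 19.3%. The 1 above was Park7, at 0.42 ± 0.15 (limma, adjusted p = 0.00771) on 2 probes. Hagh, which encodes the second enzyme of the glyoxalase pathway, lay at -0.44 ± 0.22 (adjusted p = 0.0133), and the incretin and glucagon receptors Gipr and Gcgr, on 1 probe each, at -1.03 ± 0.23 and -0.55 ± 0.08 (adjusted p = 0.00138 and 0.00223). Both lists were read beside the 35.4% of all autosomal genes that passed, and nothing particular to either list was tested.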

How the data were processed

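The authors deposited the intensity of each spot as read by Agilent Feature Extraction 10.10.1.1 (probes on mm9), per the file headers. That software had subtracted the background, removed spatial trends, replaced dim signals by surrogates and applied a linear dye normalisation. The deposited log10 ratio column served only as a check and differed from the ratios used by at most 4.1e-07 on spots without surrogates. A deposited table of log2 values of the same arrays was also tried. Its correlation with the ratios of its own array was 0.91 to 0.92 over 54557 probes, and its column medians were -0.04, 0.03, 0.05 and 0.005. Its direction and scale were read from that comparison, and its normalisation stays unknown.

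Here log2 of processed Cy5 over Cy3 was taken, leaving out control spots and outlier flags, with repeated spots averaged per probe and the median of autosomal probes set to 0 on each array. Flags such as well above background are other columns of the deposited files. A gene was the mean of its probes. Genes and probes were tested against 0 with limma 3.58.1 in R 4.3.3, so the variation among normal livers is not included. The count of genes past the threshold was 7236 of 20445. A step is the mean of the member span minus that of the flanks on 1 array. Steps were tested by exact sign flips over the 4 arrays. The fits and steps were checked on simulated data. Alternatives were normexp (offset 50), a filter on dim probes, other centrings, the slide as a block or averaged, the deposited table, each replicate left out, other flanks and, chosen after seeing the data, a correction for G+C content and changes of the flank. The genes named are the members, their neighbours, extremes of the flanks, nearest genes by value and up to 3 genes of each list. Alad and Park7 were named in addition. Members and lists were chosen with earlier results of these data known. All 6 member names are symbols of the RefSeq table of GRCm38, whose coordinates were not used. The number of arrays limits the precision. A listed locus is not reported here.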

Additional observations from a re-analysis of the deposited data

Results flagged for a closer look

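Of 25 sets of 4 array values examined among member genes, probes and locus steps, 2 held an array far from the other three. In the Nnt probe at chr13:120171758-120171817, replicate 2 lay at 0.17 and the others between -0.13 and -0.11, a gap of 0.919 of the range. In the Btbd9 probe at chr17:30382541-30382600, replicate 3 lay at 0.08 and the others between -0.32 and -0.31, a gap of 0.960 of the range. Both exceed Dixon's critical value for 4 samples. Chance alone marks about 1 set in 20.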

How the results depend on the processing

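No paired analysis was possible because there was 1 group. Of 70 alternative values of the 5 member genes 64 kept their sign, and no gene was past the threshold in any of them. Some of the 64 could not have turned. Taking the slide as a block or averaged leaves the mean of a gene as it was. So does the median of probes for Glo1 and Glp1r, which have 2 probes each. With normexp the Glo1 gene lay at -0.12, the step of the Glo1 trio at 0.028, Nnt probe 120193745 at 0.035, Btbd9 probe 30354440 at 0.038, Glo1 probe 30739775 at -0.040, Glp1r probe 31060146 at 0.081 and Btaf1 probe 37050531 at 0.027, each with its sign turned. Sign also turned with probes well above background only (Glo1 gene -0.0012, Btaf1 gene 0.0088), with mode centring (Glo1 gene -0.012) and with chromosome centring (Nnt probe 120158779 at -0.085, Btbd9 probe 30354440 at 0.014). It turned in the deposited table for Btbd9 probe 30354440 (0.060), and with the G+C correction for Glo1 probe 30730051 (0.18) and Glp1r probe 31047426 (0.017). The step of the Glo1 trio was 0.017 with member-named probes, that of Btaf1 0.043 with flanks of 250 kb, and that of Nnt -0.39 with flanks of 1000 kb and -0.31 against the lower-coordinate flank. With each replicate left out in turn, the Glo1 gene ranged from -0.012 to 0.060, below 0 without replicate 1 and without replicate 2. Btbd9 probe 30354440 then ranged from -0.10 to 0.093, Btaf1 probe 37050531 from -0.22 to 0.092, and the steps from -0.63 to -0.51 (Nnt), -0.28 to -0.11 (Btaf1) and -0.10 to -0.02 (Glo1 trio). With a size limit of 0.5 the genes past the threshold numbered 2383, against 7236, and the probes 8832, against 19349. The causes of these changes were not tested. Steps were not run with mode or chromosome centring or with the slide as a random block.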
